A study of Mus musculus with 22 samples.

Results

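The 9 genes described here belong to the methionine cycle and the use of S-adenosylmethionine (SAM): Ahcy, Ahcyl1, Ahcyl2, Mat2a, Mat2b, Mtr, Cbs, Amd1 and Mtap. They encode enzymes, a regulatory subunit (Mat2b) and relatives of the Ahcy enzyme (Ahcyl1 and Ahcyl2). They were chosen by name as the pathway that DZNep blocks, and all 9 were found among the 18487 genes of the table. All 9 also passed the filter on low values, which 17275 genes passed. RNA was measured in 22 libraries of the E14 line of mouse embryonic stem cells (ESCs), with 2 libraries for each of 11 groups. Each of 10 groups received a single compound: Bromosporine (an inhibitor of bromodomains), Valproate (histone deacetylases), CPTH2 and Garcinol (histone acetyltransferases), Chaetocin (histone lysine methyltransferases), UNC0379 (the methyltransferase SETD8), MS023 (type I arginine methyltransferases), DZNep (S-adenosylhomocysteine hydrolase), IOX1 (2-oxoglutarate oxygenases) and OICR, whose full name the labels do not give. The remaining group, NC, is the only one for which no compound is named, and it served as the reference. All groups share the same cell line. The dose, the length of treatment and whether the 2 libraries of a group came from separate cultures are not given in the sources used here, so p-values measure the spread between these libraries, which may be technical.

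In the methionine cycle, methionine is activated to SAM, the methyl donor of histone, DNA and RNA methyltransferases. Each transfer leaves S-adenosylhomocysteine, a product that inhibits methyltransferases until it is hydrolysed to homocysteine and adenosine. Homocysteine is then methylated back to methionine or leaves the cycle towards cysteine, and a separate branch spends SAM on polyamines and returns its sulfur by salvage. Mouse ESCs are known for a high demand for SAM and, through threonine and serine, for the one-carbon units that feed the cycle.

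The values are normalized, whole-number scores with the same median (409) and largest value (221616) in every library, so depth is unknown and no counting interval can be given. Totals lay between 38403767 and 38419709 per library. The ESC identity of the cells was checked with 10 markers, all of them present, whose summed value lay between 174477 and 282005. Of 7 fibroblast markers 1 was at 0 in all libraries, and their sum reached 27 to 1874, while the 5 primitive endoderm markers in the table summed to 219 to 739. The sum for the 2 liver markers in the table was between 2 and 45.

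Sequences are shown first for 2 of the genes, because their transcripts have near-identical copies elsewhere in the genome and the values depend on how reads were divided between them. Ahcy (ENSMUSG00000027597) lies on chr2:155059310-155074497, minus strand, in GENCODE M21 on GRCm38 (mm10), and 79.4% of the 31-base stretches of its longest transcript also occur in transcripts of other genes. Its main copy is Gm4737, a single-exon retrogene on chr16:46152985-46155077 (minus strand), which holds 76.5% of all 31-base stretches of that Ahcy transcript. The coding sequences of both have 1299 bases and differ at 4 positions (99.7% identity). The 60 coding bases below hold 2 of the 4 differences, in capitals. They lie in exon 9 of Ahcy at chr2:155062228-155062287 and in Gm4737 at chr16:46153925-46153984, both on the minus strand.
Ahcy: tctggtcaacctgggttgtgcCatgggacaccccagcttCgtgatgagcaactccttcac
Gm4737: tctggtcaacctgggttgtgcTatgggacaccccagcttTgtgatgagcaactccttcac

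Amd1 (ENSMUSG00000075232, chr10:40287458-40302186, minus strand) shared 92.3% of its 31-base stretches with other genes, most of them with the single-exon gene Amd2 (chr10:35708675-35711892, minus strand). Their coding sequences of 1005 bases differ at 1 position (99.9% identity), the capital below. The stretches shown are chr10:40290157-40290216, in exon 7 of Amd1, and chr10:35710735-35710794 in Amd2.
Amd1: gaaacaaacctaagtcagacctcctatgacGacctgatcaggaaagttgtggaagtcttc
Amd2: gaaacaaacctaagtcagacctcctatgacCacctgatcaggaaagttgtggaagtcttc

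For the remaining members the share of repeated stretches was lower. It was 18.1% for Mat2a (ENSMUSG00000053907, chr6:72432799-72439558, minus strand), 7.42% for Cbs (ENSMUSG00000024039, chr17:31608894-31637238, minus strand) and 4.92% for Ahcyl2 (ENSMUSG00000029772, chr6:29768011-29912310, plus strand). It was 0.614% for Mtap (ENSMUSG00000062937, chr4:89137122-89181081, plus strand) and 0.452% for Mat2b (ENSMUSG00000042032, chr11:40679314-40695203, minus strand). It was 0% for Ahcyl1 (ENSMUSG00000027893, chr3:107663118-107696560, minus strand) and for Mtr (ENSMUSG00000021311, chr13:12182712-12258113, minus strand). Exons of Mat2a and Ahcyl2 overlap those of an opposite-strand gene, Particl and 4930528J11Rik respectively, and whether reads were counted by strand is not given in the sources used here.

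With DZNep, transcripts of Ahcy and Ahcyl1 were lower than in NC and those of Cbs were higher. Of the 9 genes 3 passed the test (adjusted p under 0.05, limma with Benjamini-Hochberg adjustment), 2 lower and 1 higher. Among all tested genes 23.6% passed with DZNep (10.7% higher and 12.8% lower), so the share of these genes is near the background. Only Cbs also changed over 2-fold, as did 11.4% of all genes. The median log2 difference of the 9 genes was -0.17 and that of all genes -0.04. In the same libraries the summed ESC markers were 272086 and 282005 with DZNep and 207855 and 209158 in NC, and the summed fibroblast markers were 1612 and 1874 against 528 and 1368. Their part in the result was not tested. In bulk RNA, fewer cells of a type and less RNA per cell cannot be told apart.

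Ahcy encodes the enzyme that hydrolyses S-adenosylhomocysteine, the step that DZNep inhibits. Its value was 336 and 431 in NC and 225 and 224 with DZNep. Both DZNep libraries lay below every other library of the series, and the next group up was OICR at 321 and 292. The other groups were CPTH2 (273 and 404), Garcinol (371 and 361), MS023 (454 and 337), Valproate (392 and 436), Chaetocin (347 and 483), Bromosporine (310 and 524), UNC0379 (397 and 496) and IOX1 (464 and 430), and no neighbours in this order were apart beyond their libraries. The log2 difference between DZNep and NC was -0.76 (SE 0.26, 95% interval -1.32 to -0.20, limma adjusted p = 0.0494), so that Ahcy fell by 40.9%. Within replicate number 1 it was -0.58 and within number 2 it was -0.94. The adjusted p was 0.0799 without the first NC library, 0.239 without the second, and 0.129 and 0.122 without the first and the second DZNep library. It was 0.0504 with a pseudocount of 10, 0.0522 without the filter and 0.0562 after median-ratio rescaling. It was 0.170 with only the DZNep and NC libraries, so the call was lost in each of these as well. The call was kept with the replicate number as a term (limma adjusted p = 0.0189) and against the mean of the other 10 groups (0.00686).

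The table's value for Ahcy was a small part of what was assigned to the pair of near-identical genes. Gm4737 stood at 20262 and 21917 in NC against 14685 and 19777 with DZNep, and it ranged from 14685 to 30833 over all libraries. Per kilobase of the longest annotated transcript, the level of Gm4737 was 42.4 to 107 times that of Ahcy, and Ahcy held 1.12% to 2.78% of the summed values (median 1.72%). The log2 difference of Gm4737 with DZNep was -0.31 (SE 0.16) and did not pass (adjusted p = 0.183). The sum of both was 20598 and 22348 in NC and 14910 and 20001 with DZNep, with a log2 difference of -0.31 (SE 0.16, interval -0.66 to 0.03, adjusted p = 0.174), so the call of Ahcy was lost when the copies were summed. This sum was an alternative chosen after seeing the data. With Valproate the sum was 24172 and 31269, the highest of all groups (log2 difference 0.36, SE 0.16, interval 0.01 to 0.70, adjusted p = 0.189). Which of both genes the reads came from cannot be told apart in these values.

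**Figure D1:**
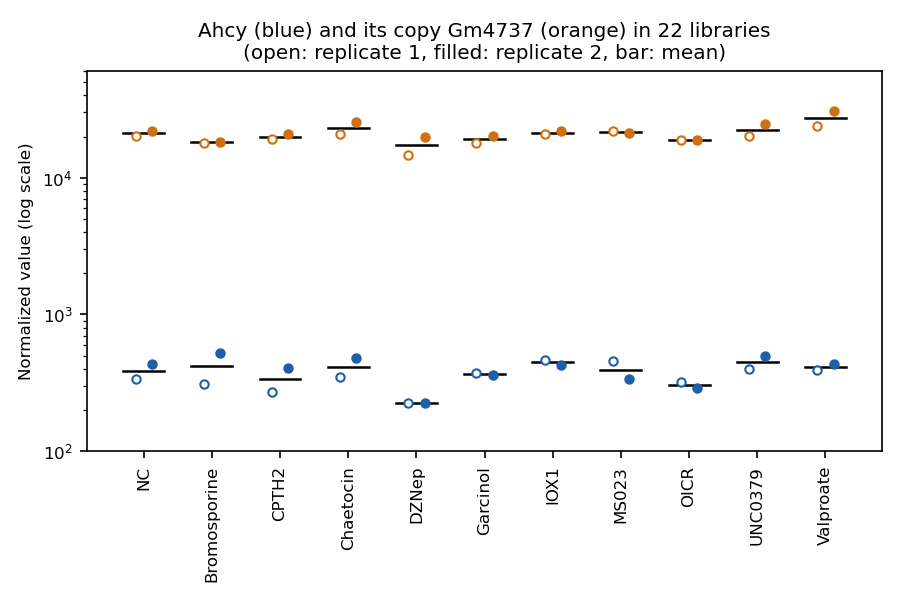
Normalized values (vertical axis, log scale) of Ahcy and its copy Gm4737 in the 2 libraries of each of 11 groups (horizontal axis). Points are libraries and bars are group means. Gm4737 stays between 14685 and 30833 while Ahcy stays between 224 and 524, with both DZNep libraries lowest for Ahcy.

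Ahcyl1, a relative of the hydrolase that binds and regulates partner proteins, shares no 31-base stretch with another gene. It was at 6255 and 4879 in NC against 3774 and 3811 with DZNep. The groups did not overlap, and the log2 difference was -0.54 (SE 0.17, interval -0.92 to -0.17, adjusted p = 0.0374), so that Ahcyl1 fell by 31.3%. Within replicate number 1 it was -0.73 and within number 2 it was -0.36. DZNep had the lowest group mean of Ahcyl1 (3793), below OICR at 4680 and 4121, but the second Bromosporine library was at the same value as the first DZNep library, 3774. The adjusted p was 0.288 without the first NC library, 0.0276 without the second, and 0.113 and 0.0949 without the first and the second DZNep library. After median-ratio rescaling it was 0.0729, and with only the DZNep and NC libraries 0.170. With the replicate number as a term it was 0.00211, and against the mean of the other 10 groups 0.027.

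Ahcyl2, the third gene of the family, was at 1270 and 1184 in NC against 732 and 1064 with DZNep, the lowest group mean of the series for it as well. Both DZNep libraries lay below both NC libraries. The difference did not pass in the fit without the replicate number (log2 -0.47, SE 0.19, interval -0.88 to -0.07, adjusted p = 0.0875). It passed with the number as a term (limma adjusted p = 0.0112). In the other 9 compounds its values lay between 878 and 1332, with Valproate the highest group at 1270 and 1212.

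The promoters of Ahcy and Ahcyl1 are shown because both genes were lower with DZNep. The windows are the 250 bases before the RefSeq transcription start (build GRCm38.p6), free of annotated exons, at chr2:155074498-155074747 and chr3:107696561-107696810, and both are written along the minus strand. Capitals mark matches to 5 motifs searched on both strands, none of which contains another. They are the CCAAT box (CCAAT, in 33.8% of 32851 promoter windows), the GC box (GGGCGG, 32.7%) and the TATA box (TATAAA, 12.4%). The others are the E-box (CACGTG, 6.02%) and the cyclic AMP response element (TGACGTCA, 1.55%). The 32851 windows were not filtered for annotated exons.
Ahcy: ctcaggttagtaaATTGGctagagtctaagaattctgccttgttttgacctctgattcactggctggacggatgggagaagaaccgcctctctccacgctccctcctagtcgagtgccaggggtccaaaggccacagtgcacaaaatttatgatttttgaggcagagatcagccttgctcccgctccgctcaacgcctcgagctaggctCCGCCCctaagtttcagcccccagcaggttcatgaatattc
Ahcyl1: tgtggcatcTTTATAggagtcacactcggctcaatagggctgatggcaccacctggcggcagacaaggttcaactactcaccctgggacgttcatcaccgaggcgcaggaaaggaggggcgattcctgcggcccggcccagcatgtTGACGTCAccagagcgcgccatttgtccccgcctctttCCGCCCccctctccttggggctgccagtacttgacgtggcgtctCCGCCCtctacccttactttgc
The Ahcy window held 1 CCAAT box and 1 GC box, and the Ahcyl1 window held 1 cyclic AMP response element, 1 TATA box and 2 GC boxes. These matches are a description of the letters only.

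Cbs, which joins homocysteine to serine as the entry to transsulfuration, varied more between groups than any other member. Its values were 946 and 1012 in NC, 2370 and 1825 with DZNep, 2313 and 1789 with Valproate and 2212 and 1575 with Bromosporine. They were 2078 and 1487 with UNC0379, 1953 and 1473 with OICR, 1834 and 932 with IOX1 and 1728 and 996 with Chaetocin. They were 1519 and 1150 with Garcinol, 1498 and 1045 with CPTH2, and 809 and 516 with MS023. MS023 was thus the lowest group and lay apart from NC, and NC lay apart from the next group (CPTH2). None of the other neighbours in the order of means were apart beyond their libraries. NC did overlap Chaetocin and IOX1 further up the order, whose second libraries were at 996 and 932. The highest group mean (DZNep) was 3.17 times the lowest (MS023).

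Against NC, in the fit without the replicate number as a term, only the change of Cbs with DZNep passed, with a log2 difference of 1.09 (SE 0.36, interval 0.31 to 1.86, adjusted p = 0.0432). Within replicate number 1 it was 1.32 and within number 2 it was 0.85. The differences with Valproate (1.06, SE 0.36, interval 0.28 to 1.83, adjusted p = 0.0829) and Bromosporine (0.93, SE 0.36, interval 0.16 to 1.71, adjusted p = 0.166) were of similar size and did not pass. Those with UNC0379 (0.845, interval 0.07 to 1.62, adjusted p = 0.791) and OICR (0.793, interval 0.02 to 1.57, adjusted p = 0.451) did not pass either. A difference between these compounds was not tested. With the replicate number as a term, Cbs passed with DZNep (limma adjusted p = 4.18e-04), Valproate (0.00119), Bromosporine (0.00413) and OICR (0.0280). It did not pass with UNC0379 (0.0811). Against the mean of the other 10 groups, the difference with DZNep was 0.62 (adjusted p = 0.0905), and with only the DZNep and NC libraries the adjusted p was 0.0927. The adjusted p was 0.180 without the first NC library, 0.106 without the second, 0.190 without the first DZNep library and 0.0599 without the second. The comparisons of all 10 compounds share the same 2 NC libraries. With MS023 the log2 difference was -0.60 (SE 0.36, interval -1.37 to 0.18, adjusted p = 0.488).

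Mat2a encodes the catalytic subunit of the enzyme that makes SAM outside the liver. Its value was 10700 and 15391 in NC and 9208 and 8553 with DZNep. Although the groups did not overlap, the difference did not pass in the fit without the replicate number (log2 -0.53, SE 0.44, interval -1.48 to 0.42, adjusted p = 0.415). That interval held changes in both directions. With the number as a term, the limma adjusted p was 0.0509 with DZNep, 0.0535 with Valproate and 0.060 with Bromosporine. The pairs of libraries were 6515 and 11384 with Valproate, 5854 and 12145 with Bromosporine, 7585 and 12673 with CPTH2, 7989 and 12673 with UNC0379 and 8858 and 15025 with Chaetocin. They were 10046 and 15025 with Garcinol, 11384 and 14421 with OICR, 9104 and 17267 with IOX1, and 12673 and 17267 with MS023. The second library was higher than the first in every group but DZNep, and no neighbours in the order of group means were apart. The SD of Mat2a within groups was 0.48 on the log2 scale, the highest of the 9 genes. Some values, such as 12673, recur in several libraries, since the normalized libraries share one set of values.

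Mat2b, the regulatory subunit of the same enzyme, lay between 1737 and 2691 in all libraries. Valproate had the lowest group (1737 and 1747), below every other library, against 1843 and 2324 in NC (log2 difference -0.25, SE 0.14, interval -0.56 to 0.06, adjusted p = 0.303). With DZNep it was at 2244 and 2115 (log2 difference 0.07, interval -0.23 to 0.38, adjusted p = 0.755).

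**Figure D2:**
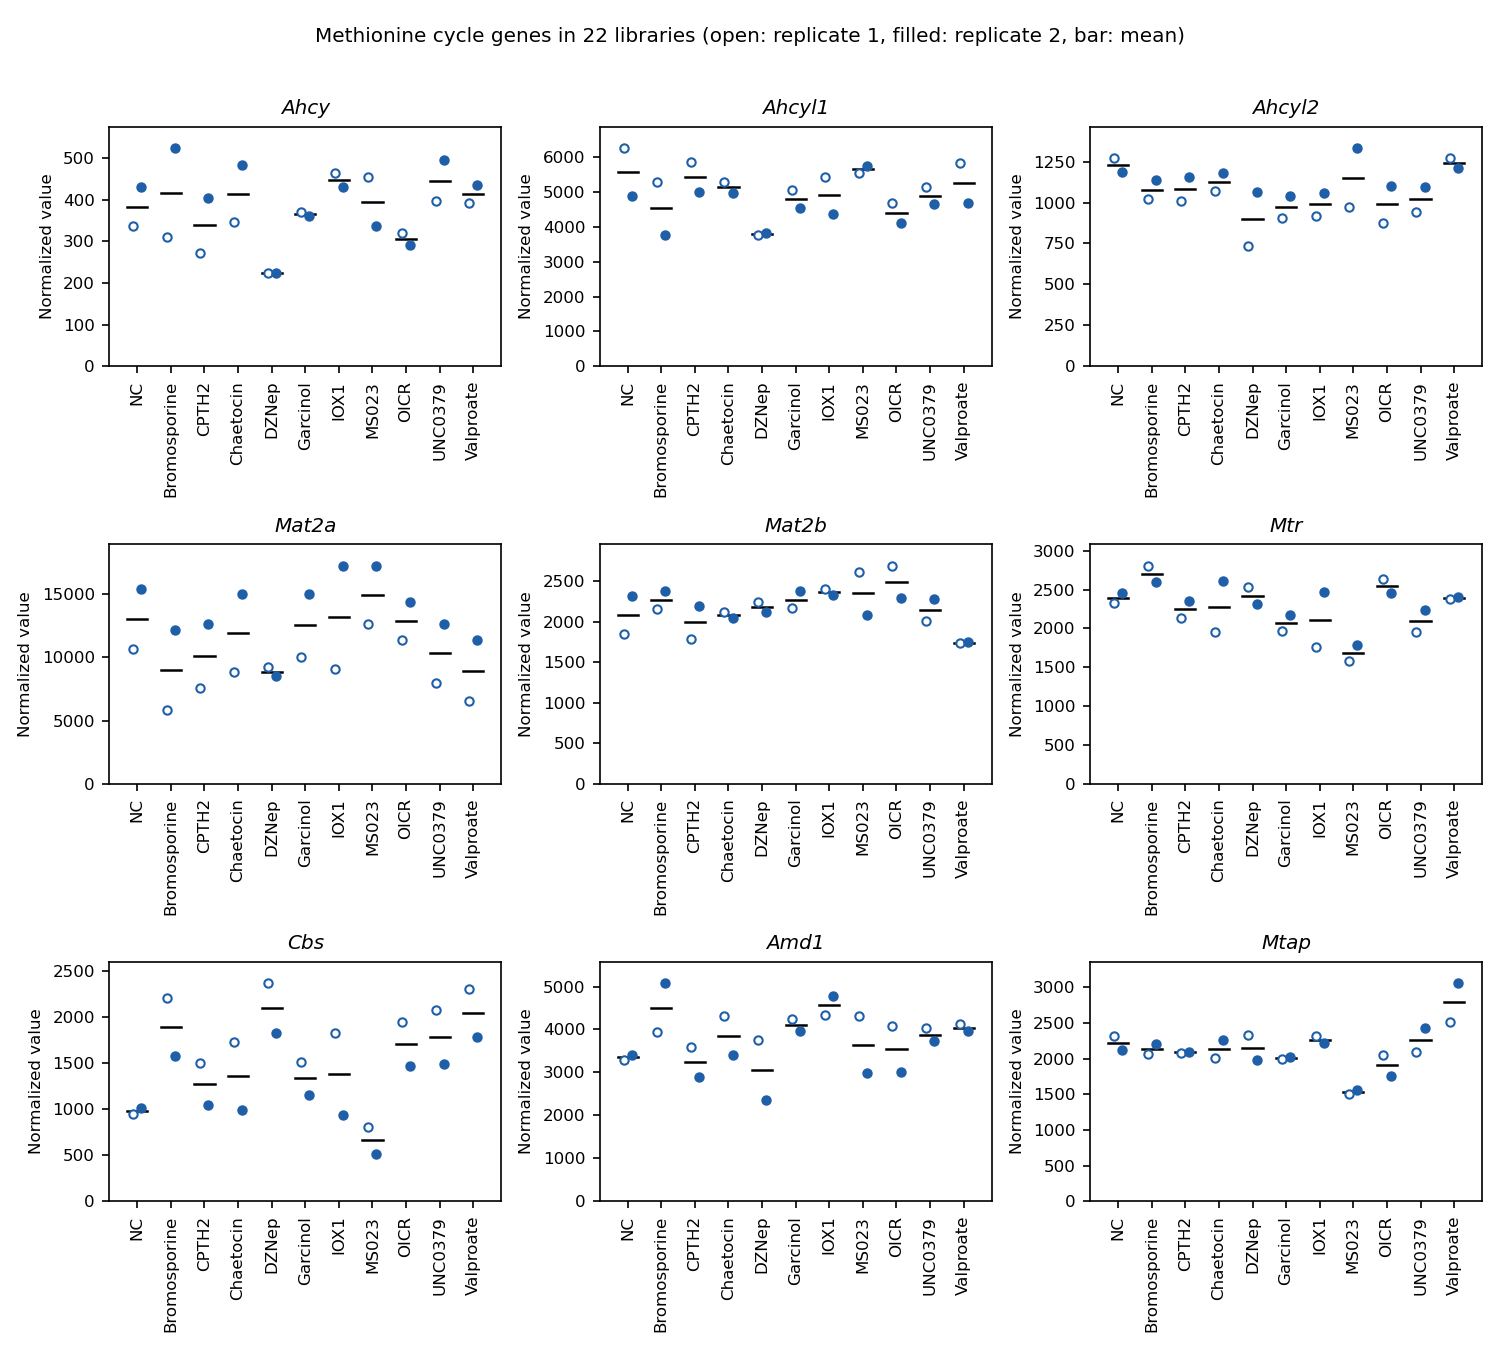
Normalized values (vertical axes, linear from 0) of the 9 genes in the 2 libraries of each group (horizontal axes). Open points are replicate 1, filled points replicate 2 and bars the group means. DZNep is lowest for Ahcy (225 and 224) and Ahcyl1 (3774 and 3811), MS023 is lowest for Mtr, Cbs and Mtap, and the 2 replicates of Mat2a lie far apart in most groups.

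Mtap and Mtr were lowest in the MS023 group. Mtap cleaves methylthioadenosine, the by-product of polyamine synthesis and an inhibitor of arginine methyltransferases, and so starts methionine salvage. It was at 2316 and 2121 in NC against 1506 and 1558 with MS023, below every other library of the series. The log2 difference was -0.53 (SE 0.12, interval -0.80 to -0.27, adjusted p = 0.0418), so that Mtap fell by 30.9%. Within replicate number 1 it was -0.62 and within number 2 it was -0.45. It was the only one of the 9 genes to pass with MS023, where 2.21% of all tested genes passed and 1.34% passed as lower. The adjusted p was 0.274 without the first NC library, 0.101 without the second, and 0.234 and 0.138 without the first and the second MS023 library. With only the MS023 and NC libraries it was 0.287. With the replicate number as a term it was 0.0149, and against the mean of the other 10 groups 0.00403.

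At the other end of the order for Mtap stood Valproate, at 2520 and 3057, above every library of the other groups (log2 difference 0.32, SE 0.12, interval 0.06 to 0.59, adjusted p = 0.119). The remaining 8 compounds lay between 1756 (OICR) and 2430 (UNC0379). Mtap had the smallest SD within groups, 0.12 on the log2 scale.

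Mtr, the cobalamin-dependent methionine synthase that methylates homocysteine, was at 2324 and 2454 in NC against 1574 and 1787 with MS023. This difference did not pass in the fit without the replicate number (log2 -0.51, SE 0.16, interval -0.85 to -0.17, adjusted p = 0.133). It passed with the number as a term (limma adjusted p = 0.0346). With DZNep Mtr was at 2531 and 2315 (log2 difference 0.02, interval -0.33 to 0.36, adjusted p = 0.953), and the highest group was Bromosporine at 2807 and 2596. In the MS023 libraries the summed ESC markers were 189832 and 174477, and the summed fibroblast markers 1067 and 105. Their part in the lower values was not tested.

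Amd1 decarboxylates SAM and commits it to the polyamines. Its value was 3281 and 3414 in NC, 3758 and 2357 with DZNep and 4331 and 4787 with IOX1, the highest group. The DZNep libraries lay on either side of NC (log2 difference -0.17, SE 0.23, interval -0.67 to 0.33, adjusted p = 0.640), and with IOX1 the difference was 0.44 (interval -0.05 to 0.94, adjusted p = 0.463). Amd1 held 73.4% to 87.6% of its sum with Amd2. For that sum the log2 difference with DZNep was -0.09 (SE 0.19, interval -0.50 to 0.31, adjusted p = 0.765).

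**Figure D3:**
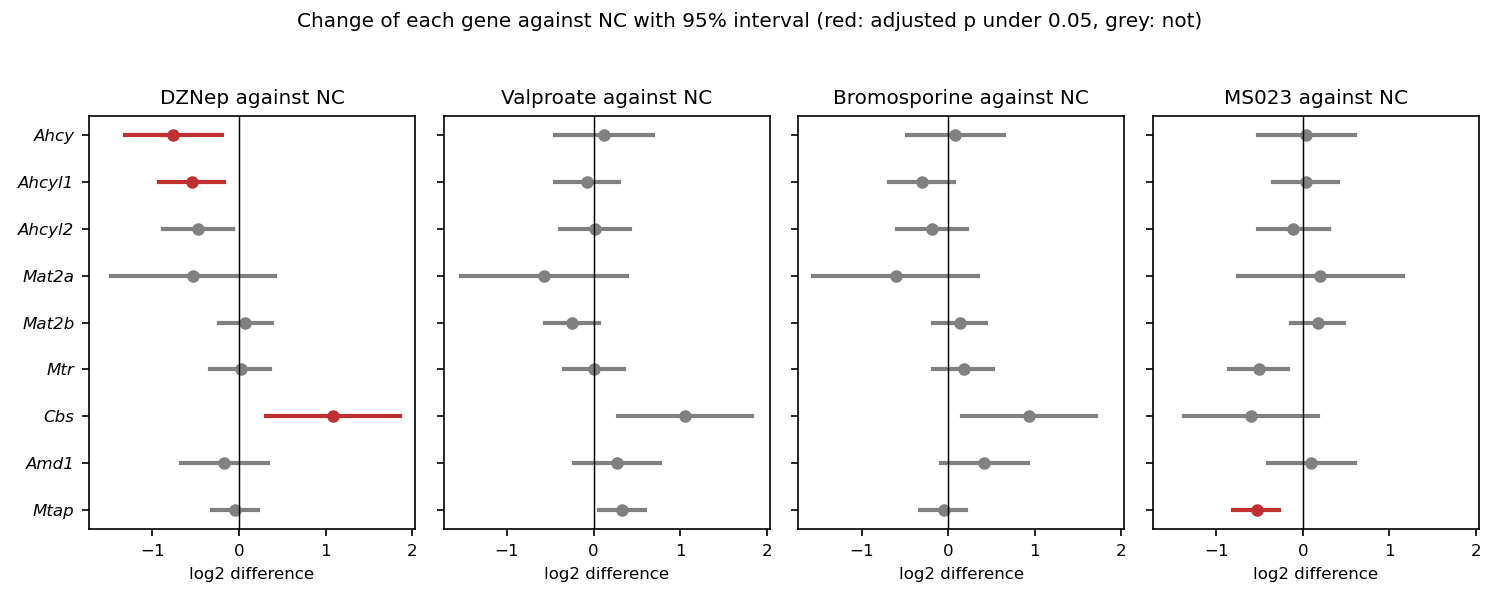
Log2 differences against NC (horizontal axes) of the 9 genes (vertical axis) for DZNep, Valproate, Bromosporine and MS023. Points are limma estimates and lines their 95% intervals, in red where the adjusted p is under 0.05. With DZNep Ahcy (-0.76), Ahcyl1 (-0.54) and Cbs (1.09) pass, and with MS023 Mtap (-0.53) does.

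In the fit without the replicate number, no member passed with the other 8 compounds. Among all genes the share that passed was 10.3% with Valproate, 5.4% with Bromosporine, 0.637% with OICR, 0.127% with IOX1, 0.0174% with Chaetocin, 0.00579% each with CPTH2 and Garcinol, and 0% with UNC0379. At an unadjusted p under 0.05 in limma there were 2 members with Valproate (Cbs and Mtap). There was 1 each with Bromosporine, OICR and UNC0379 (Cbs in every case), and 0 with Chaetocin, CPTH2, Garcinol and IOX1. The share of all genes at this unadjusted threshold is not given here, so these counts cannot be set against a background. The intervals of Ahcy against NC reached at most from -0.87 (OICR) to 0.79 (IOX1) for these 8 compounds.

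A moderated F test asked whether a gene varied among the 11 groups at all, whichever served as the reference. It passed for Mtap (adjusted p = 0.0133) and Cbs (adjusted p = 0.0417), 2 of the 9 genes, where 29.7% of all genes passed. Leaving out either MS023 library left 0 of the 9 passing, and leaving out most of the other libraries, both of NC and both of DZNep among them, left 1. Without the replicate number as a term, the other 7 had adjusted p-values from 0.112 (Mtr) to 0.727 (Mat2a). With the number as a term, that of Mat2a was 0.0292. Ratios of the highest to the lowest group mean were 1.99 for Ahcy, 1.82 for Mtap, 1.69 for Mat2a and 1.38 to 1.61 for the others apart from Cbs.

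The replicate number moved with several of these genes, and every group had 1 library of each number. In a fit with both the group and the number, 52.6% of all genes differed between numbers 2 and 1. Mat2a was higher in number 2 by 0.61 on the log2 scale (SE 0.09, adjusted p = 1.30e-04) and in 10 of 11 groups. Cbs was lower in number 2, with a log2 difference of -0.49 (SE 0.08, adjusted p = 2.36e-04), and was higher there in 1 of 11 groups. Ahcyl2 was higher (0.21, adjusted p = 0.00821, 9 of 11 groups) and Ahcyl1 lower (-0.20, adjusted p = 0.00346, higher in 2 of 11 groups). For the other 5 genes the adjusted p was at least 0.0901. The labels do not say what the number stands for.

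**Figure D4:**
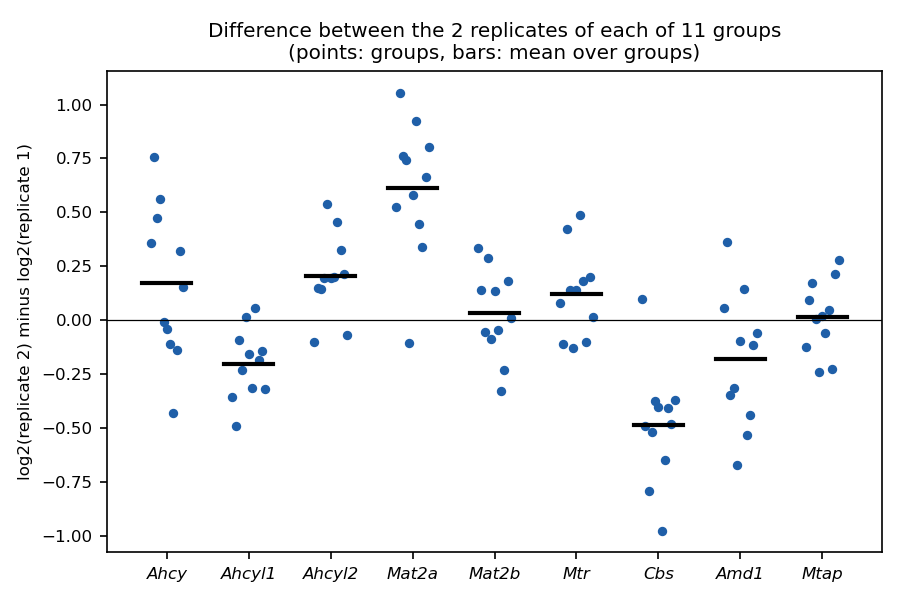
Log2 value of replicate 2 minus that of replicate 1 (vertical axis) for the 9 genes (horizontal axis). Each point is 1 of the 11 groups and each bar is the mean over groups. Mat2a lies above 0 in 10 groups and Cbs below 0 in 10 groups.

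Genes whose group means followed those of Ahcy or Mat2a were sought over the 11 groups among 12870 genes, as a description. Closest to Ahcy were Hdac1 (Pearson r = 0.96), Gm10093 (0.95), Pank4 (0.95), Deptor (0.94) and Agps (0.94). Among the closest to Mat2a were Ammecr1l (0.92), Snap29 (0.86), Srxn1 (0.86) and Naaa (0.85). The group means share libraries, normalization and the replicate numbers. These r are among the highest of 12870 over only 11 group means, so the search alone favours high values. Without the replicate number as a term, neither Ahcy (adjusted p = 0.14) nor Mat2a (0.727) passed the moderated F test.

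Around the 9 genes, 9 lists named 82 genes of adjoining pathways, of which 77 were tested. With DZNep 11 of the 77 were higher, 13 were lower and 53 did not pass, a share of 31.2% against 23.6% for all genes. The lists were chosen with earlier results of these data known, so these shares are a description and not a test. The folate cycle and serine list held the most lower genes. Of its 19 members 8 fell and 2 rose, with a median log2 difference of 0.01 against -0.04 for all genes. Phgdh, the first enzyme of serine synthesis, was at 7894 and 6544 in NC against 1580 and 1650 with DZNep (log2 difference -2.15, SE 0.14, adjusted p = 2.45e-06). Psat1, the next enzyme, fell from 24778 and 22956 to 7821 and 7413 (-1.65, SE 0.27, adjusted p = 8.37e-04). The mitochondrial folate enzymes Aldh1l2 (-2.19, adjusted p = 2.46e-05) and Mthfd2 (-1.67, adjusted p = 0.00542) were lower as well. The mitochondrial Mthfd1l, shown after its values were seen, had a difference of -1.46 (adjusted p = 1.26e-05).

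In the list of liver forms of the cycle, 5 of 7 genes were tested, of which 3 rose and 1 fell (median log2 difference 0.96). Among all tested genes 10.7% rose and 12.8% fell with DZNep. Bhmt methylates homocysteine with betaine in place of folate, and it was at 3311 and 2581 in NC against 6976 and 9846 with DZNep (1.50, SE 0.40, adjusted p = 0.0142). The neighbouring genes Dmgdh, which acts on the dimethylglycine that Bhmt produces (0.96, adjusted p = 0.00426), and Bhmt2 (0.79, adjusted p = 0.00736) rose too. With Bromosporine, Bhmt, Bhmt2 and Dmgdh passed as lower, Bhmt at 253 and 267 (-3.49, SE 0.40, adjusted p = 4.37e-04). The gene that fell with DZNep was Gnmt, the glycine methyltransferase, named after its values were seen, at 28 and 18 in NC against 1 and 0 with DZNep, values too low for a fold. Mat1a, which makes SAM in liver, was at 0 and 3 in NC against 6 and 15 with DZNep.

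Downstream of Cbs, the transsulfuration and glutathione list had 2 of 7 genes higher and none lower with DZNep. Among all tested genes 23.6% passed with DZNep, 10.7% as higher. Gss, the last enzyme of glutathione synthesis, rose from 4062 and 3966 to 8556 and 11541 (1.31, SE 0.17, adjusted p = 1.84e-04), and Ggct, which breaks down gamma-glutamyl peptides, rose by 0.60 (adjusted p = 0.00547). Cth, the enzyme that acts directly after Cbs, did not pass (5607 and 4502 in NC, 6290 and 6583 with DZNep, adjusted p = 0.385). With MS023, 3 of the 7 genes were higher (Gclc, Gss and Gsr), where 2.21% of all tested genes passed. With Valproate Cth was lower, at 2765 and 1656 (-1.23, SE 0.28, adjusted p = 0.0130).

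Adenosine is the other product of the Ahcy reaction. The list of adenosine and methionine handling had 3 of 8 genes higher and 1 lower with DZNep, against 10.7% and 12.8% of all tested genes. Ada, which deaminates adenosine, was at 43 and 113 in NC against 727 and 687 with DZNep (3.32, SE 0.35, adjusted p = 3.59e-05), and at 211 and 318 with Valproate (1.88, SE 0.35, adjusted p = 0.00479). Pnp, which acts on the inosine that follows, rose by 0.89 (adjusted p = 0.00924) and the amino acid transporter Slc43a2 by 0.71 (adjusted p = 0.00266). Slc7a5, a transporter of methionine and other large neutral amino acids, fell from 19201 and 15581 to 9790 and 8821 (-0.90, SE 0.17, adjusted p = 0.00227). Adk, the kinase that returns adenosine to AMP, was at 1040 and 1060 in NC against 891 and 1261 with DZNep (adjusted p = 0.982).

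The lists nearest to Mat2a and Amd1 held no gene that passed with DZNep, where 23.6% of all tested genes passed. Of the 6 genes of SAM sensing and Mat2a RNA control 0 passed (median log2 difference 0.10). Among them Mettl16, the RNA methyltransferase that acts on the Mat2a transcript, was at 1814 and 1994 in NC against 2523 and 2746 with DZNep (0.47, adjusted p = 0.123). Of the 9 tested genes of polyamine synthesis and turnover 0 passed as well (median -0.08), the nearest being Srm, which makes spermidine from the product of Amd1 (0.47, adjusted p = 0.0518). In the salvage list after Mtap 1 of 7 passed, Got1, which fell by 0.84 (adjusted p = 0.0103). In the cobalamin list for Mtr 1 of 8 passed, the lysosomal protein Lmbrd1, which rose by 0.58 (adjusted p = 0.00247). Of 8 small-molecule methyltransferases tested 2 fell, among them As3mt (-0.68, adjusted p = 0.00267), and none rose.

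**Figure D5:**
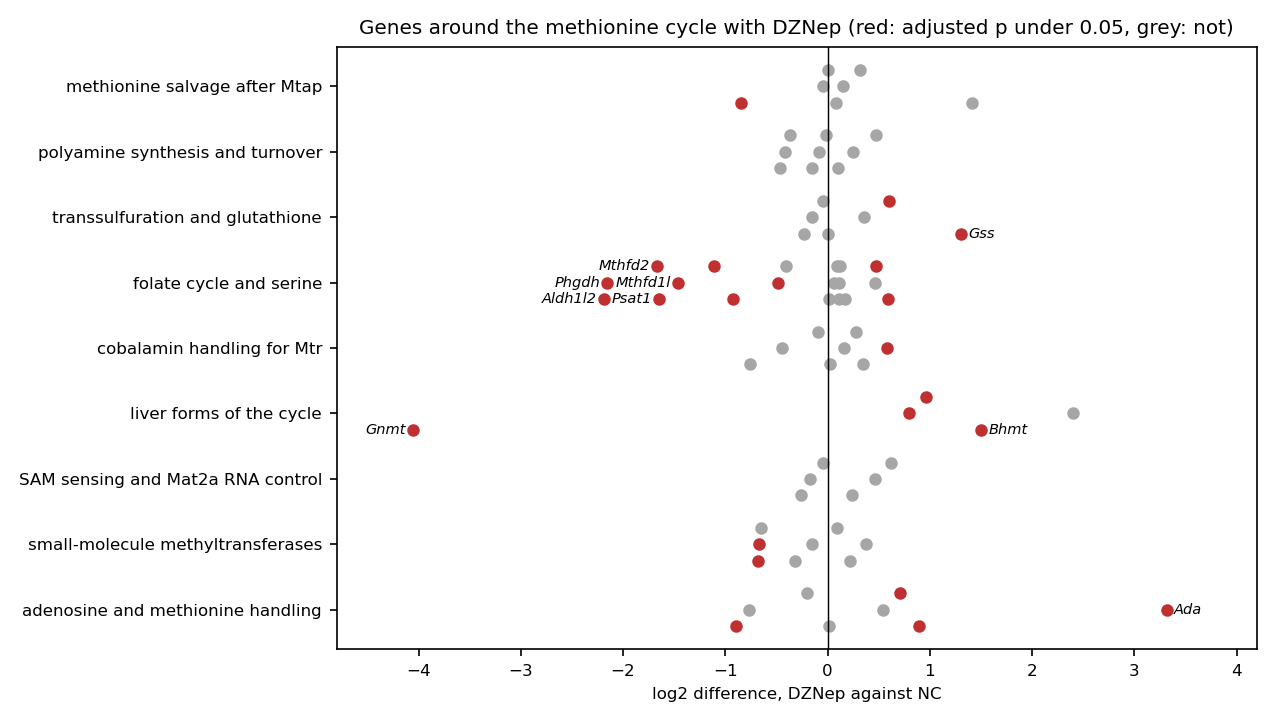
Log2 difference between DZNep and NC (horizontal axis) for 77 genes in 9 lists around the cycle (vertical axis). Each point is a gene, red where the adjusted p is under 0.05 and grey otherwise, and red points beyond 1.2 in either direction are named. The folate and serine list has 8 lower genes, down to -2.19 for Aldh1l2, and Ada stands at 3.32.

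The 77 genes, chosen with earlier results of these data known, were also tested with the other compounds. There were 5 higher and 10 lower with Valproate (19.5%, background 10.3%), 3 and 7 with Bromosporine (13%, background 5.4%), 6 and 0 with MS023 (7.79%, background 2.21%), 0 and 2 with OICR (2.6%, background 0.637%) and 0 and 1 with IOX1 (1.3%, background 0.127%). With Chaetocin, CPTH2, Garcinol and UNC0379 0 of 77 passed. Phgdh passed as lower with 4 compounds. It was at 3975 and 4454 with Bromosporine (-0.77, adjusted p = 0.00528), at 2968 and 3713 with OICR (-1.11, adjusted p = 0.00380) and at 4567 and 4333 with Valproate (-0.69, adjusted p = 0.00574). The glycine cleavage gene Gldc was the main exception to the falls with Valproate, at 4190 and 3739 in NC against 18252 and 12808 with Valproate (1.95, SE 0.33, adjusted p = 0.00224).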

How the data were processed

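RNA from E14 mouse ESCs was measured in 22 libraries. Per the labels, messenger RNA was enriched from total RNA with oligo-dT beads. The submitters' processing notes name bcl2fastq, Bowtie2 2.2.5, RSEM and the build mm10. The deposited values are scores, whole-number expression values that the authors had normalized, and the tool used for this is not given in the sources used here. Because all libraries have equal distributions, differences in depth, in total RNA or common to most genes cannot be seen. A deposited table of group means equalled the means of the library columns (largest difference 0) and was left out. The number of unmatched columns was 0.

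Groups and replicate numbers came from the sample titles. Log2(value + 1) was analysed in R 4.3.3 with limma 3.58.1 (11 group means, all 22 libraries, 11 residual degrees of freedom, eBayes with a trend) for genes with at least 10 in at least 2 libraries. This scale understates changes of low genes. P-values were two-sided, with Benjamini-Hochberg adjustment over all tested genes of a contrast, and a gene passed at an adjusted p under 0.05. The script was tested on simulated data. Shared 31-base stretches, coding sequences and positions came from GENCODE M21, and promoters from RefSeq. All 9 members are named, and from each pathway list up to 4 genes that passed with DZNep, by size, with a group mean of at least 100. Other genes were named after their values were seen. Of the genes these rules picked, 2 are not reported here. The members and lists were chosen with earlier results of these data known. Alternatives were another pseudocount, no filter, median-ratio rescaling, each compound with NC alone, the replicate number as a block, the other 10 groups as the reference, a fold over 2 and each library left out. Figures were drawn with matplotlib 3.10.9.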

Additional observations from a re-analysis of the deposited data

How the results depend on the processing

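The number of members that passed with DZNep was 3. It was 1 after median-ratio rescaling and 1 with a fold over 2, 0 with only the libraries of DZNep and NC, and 0 to 1 with each library left out. It was 2 with a pseudocount of 10, without the filter, against the other 10 groups and with copies summed. With Valproate (0) it was 2 against the other 10 groups. With the other 7 compounds (1 in all, Mtap with MS023) it was 3 against the other 10 groups, 0 with only the compound and NC, 0 with a fold over 2 and 0 to 1 with each library left out. The share of all genes that passed against the other 10 groups is not given here. In the F test (2) the number of members was 1 after rescaling and 0 to 3 with each library left out. The fits of a single compound with NC rest on 4 libraries, and where a library was left out the lone one is assumed to vary like the other groups. The cause of the other shifts was not tested.

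The replicate numbers were not shown to pair the libraries, and the results above come from the fit without them unless stated. In the fit with the number, 52.6% of all genes differed between numbers 2 and 1. Deviations of same-numbered libraries correlated at 0.0535 to 0.298 over 55 pairs of groups, 51 of them over 0.1, and at 0.0836 to 0.183 between NC and the compounds. With the number as a replicate block, 4 members passed with DZNep (43% of all genes), 1 with Valproate (26.7%) and 1 with Bromosporine (16.5%). With the other 7 compounds 3 passed, 2 with MS023 (10.2%) and 1 with OICR (4.09%). The F test passed for 5 (Ahcyl1, Mat2a, Mtr, Cbs and Mtap), and its share over all genes is not given here. Added were Ahcyl2 with DZNep (adjusted p = 0.0112), Cbs with Valproate (0.00119), Bromosporine (0.00413) and OICR (0.0280), and Mtr with MS023 (0.0346), all from limma.

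For single genes, only the changes that passed and those of Ahcy and Mat2a with every compound were followed. Of these values, 183 kept their side of the threshold, 25 lost the call and 23 changed sign. All of the last were for Ahcy or Mat2a where the change had not passed. Changes of the other members that had not passed were not followed. Against the other 10 groups, Mat2a was at 0.081 with Chaetocin, 0.18 with Garcinol, 0.21 with IOX1 and 0.25 with OICR. With each library left out, the log2 difference of Ahcy ran from -0.29 to 0.46 with Bromosporine, -0.13 to 0.34 with Chaetocin, -0.48 to 0.086 with CPTH2, -0.23 to 0.12 with Garcinol, -0.17 to 0.25 with MS023 and -0.06 to 0.30 with Valproate. That of Mat2a ran from -0.54 to 0.23 with Chaetocin, -0.35 to 0.23 with Garcinol, -0.49 to 0.43 with IOX1, -0.057 to 0.47 with MS023 and -0.26 to 0.26 with OICR.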
